A study of Mus musculus with 8 samples.

Results

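Elastic fiber and matrix proteoglycan genes were followed in RNA-Seq libraries from the distal lung of mice that differed in α7 genotype and in exposure to cigarette smoke (CS). The set holds 10 genes, chosen by their symbols: Eln, Fbn1, Fbln1, Fbln5, Lox, Loxl1, Mfap4, Dcn, Lum and Bgn. All 10 were among the 22756 genes counted in each library, and 9 of them were among the 7195 genes with a mean of at least 200 counts that were tested. Lox stayed below that minimum and is described by its values. The control genotype, α7G, carries Chrna7-IRES-tauGFP, in which the gene of the nicotinic receptor subunit α7 is linked to a tauGFP reporter. The other genotype, α7E260A:G, carries Chrna7-E260A-IRES-tauGFP, the same reporter allele with a point mutation made to limit the calcium coupling of the receptor. All mice were adult and of more than 90percent C57BL/6 background, so the reporter allele and the strain were common to every group. CS mice inhaled side-stream smoke on 5 days per week for 4 months, and controls breathed room air. Each of the 4 groups had 1 male and 1 female library, and the number of mice behind a library is not stated in the sources used here, so that the spread within a group is also the difference between the sexes. The cells were interstitial cells of lavaged distal lungs from which CD45+ cells had been depleted with magnetic beads.

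Elastic fibers are the extensible cables of the alveolar wall, the airway wall and the vessel wall. They consist of a core of cross-linked elastin deposited on a scaffold of fibrillin microfibrils, with fibulins and microfibril-associated proteins at the surface and lysyl oxidases as the enzymes that form the cross-links. The small leucine-rich proteoglycans decorin, lumican and biglycan bind collagen fibrils and regulate their spacing and diameter. In the lung these genes are mainly transcribed by fibroblasts and other mesenchymal cells, and loss of elastic fibers is a hallmark of emphysema.

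Total counts on coding sequence (CDS) were between 8020726 and 10944100 per library, so that 3 counts corresponded to 0.274 to 0.374 RPM (reads per 1000000 counted reads), a limit that covers counting error only. Chrna7, the gene that carries the mutation, had 0 counts in 7 libraries and 4 counts in the male α7E260A:G control, too few to check the genotype labels. The 5 general epithelial markers, among them Epcam, Cdh1 and Krt19, summed to 1000 to 1890 RPM and all passed the count minimum. Of the markers of single epithelial cell types, the 6 of alveolar type II (ATII) cells summed to 4170 to 28400 RPM. The 3 club cell markers summed to 14400 to 67600 RPM. The 8 fibroblast markers, led in RPM by Col1a2 and Col3a1, summed to 516 to 2310 RPM. The 5 leukocyte markers summed to 11300 to 23100 RPM, mainly from Lyz2 at 13100 RPM on average. Ptprc averaged 1250, Cd68 841, Cd79a 388 and Cd3e 68.0 RPM. No share of leukocytes was derived from this sum. The preparation, described by the labels as almost entirely epCAM+, thus held transcripts of several cell types, and in such bulk libraries fewer cells of a type and less RNA per cell cannot be told apart.

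Of the 10 genes, 4 had an entry in the RefSeq promoter table used here: Fbn1, Fbln1, Fbln5 and Bgn. Eln, Lox, Loxl1, Mfap4, Dcn and Lum had none. The windows of 250 bases before the start site were placed by exact match on NCBIM37, the mm9 assembly. Shown are the windows of the 2 fibulins and of Bgn that lie upstream of the annotated gene. These genes were taken because all CS libraries lay above all controls for Fbln1 and not for Fbln5 and Bgn. Fbln1 lies upstream of its gene at chr15:85036129-85036378 on the plus strand, Fbln5 at chr12:103057330-103057579 on the minus strand and Bgn at chrX:70728690-70728939 on the plus strand. Capitals mark matches, on either strand, to 5 sets of letters: TATAAA, the GC box GGGCGG, the AP-1 letters TGANTCA, the aryl hydrocarbon receptor core GCGTG and the NRF2 letters TGACNNNGC.
Fbln1: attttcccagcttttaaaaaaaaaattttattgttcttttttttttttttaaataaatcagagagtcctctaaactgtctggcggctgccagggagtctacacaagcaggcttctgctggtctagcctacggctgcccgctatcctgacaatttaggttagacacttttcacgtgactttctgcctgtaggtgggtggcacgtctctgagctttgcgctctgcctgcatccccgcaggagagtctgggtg
Fbln5: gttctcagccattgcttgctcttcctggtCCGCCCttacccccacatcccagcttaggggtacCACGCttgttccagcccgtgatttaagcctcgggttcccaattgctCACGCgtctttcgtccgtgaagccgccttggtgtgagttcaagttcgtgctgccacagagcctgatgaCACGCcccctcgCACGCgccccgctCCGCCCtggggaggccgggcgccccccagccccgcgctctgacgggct
Bgn: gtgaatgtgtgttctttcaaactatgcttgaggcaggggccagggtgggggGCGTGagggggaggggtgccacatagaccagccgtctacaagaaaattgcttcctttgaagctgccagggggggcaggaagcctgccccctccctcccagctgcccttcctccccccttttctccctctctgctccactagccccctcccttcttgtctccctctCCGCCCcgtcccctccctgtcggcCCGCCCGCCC
The Fbln1 window shown held none of these letters, while the other Fbln1 window of the table, at chr15:85036188-85036437 and partly within an annotated exon, held 1 match to GCGTG and 1 to GGGCGG. A missing match says only that the letters are not in that window. The Fbln5 window shown held 4 matches to GCGTG and 2 to GGGCGG, and the Bgn window 1 match to GCGTG and 3 to GGGCGG. The other Fbln5 window, at chr12:103056695-103056944 and within the annotated gene, held none of the letters. For both fibulins the matches thus depended on the window. Of 32851 promoter windows of this length, 28.2% held GCGTG, 32.7% GGGCGG, 12.4% TATAAA, 10.2% TGACNNNGC and 6.75% TGANTCA. These shares count windows with at least 1 match. A match to GCGTG or GGGCGG was thus found in many promoters, while how often a window holds several was not counted.

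Levels between genes were compared per length, as RPM per kb of CDS over the 8 libraries. Dcn was the highest at 579 ± 206 RPM per kb (SD, n = 8), followed by Bgn at 202 ± 82.0 and Mfap4 at 78.2 ± 34.7. Fbln1 (34.9 ± 10.6), Lum (24.4 ± 12), Fbln5 (18.3 ± 6.53), Loxl1 (13.1 ± 5.36) and Eln (10.9 ± 6.46) came next, and their neighbours in this order lay within 1 SD of each other. Fbn1 (4.17 ± 3.76) and Lox (3.69 ± 2.19) were the lowest and did not differ beyond their spread. The proteoglycan Dcn alone made up 33.9% to 64.0% of the summed RPM of the 10 genes in a library. Across the 8 libraries the highest level of Fbn1 was 9.16 times its lowest, and that of Dcn 2.63 times. Without the male α7E260A:G control the ratio was 3.35 for Fbn1 and lay between 2.44 (Eln) and 3.99 (Lum) for the 10 genes.

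**Figure D1:**
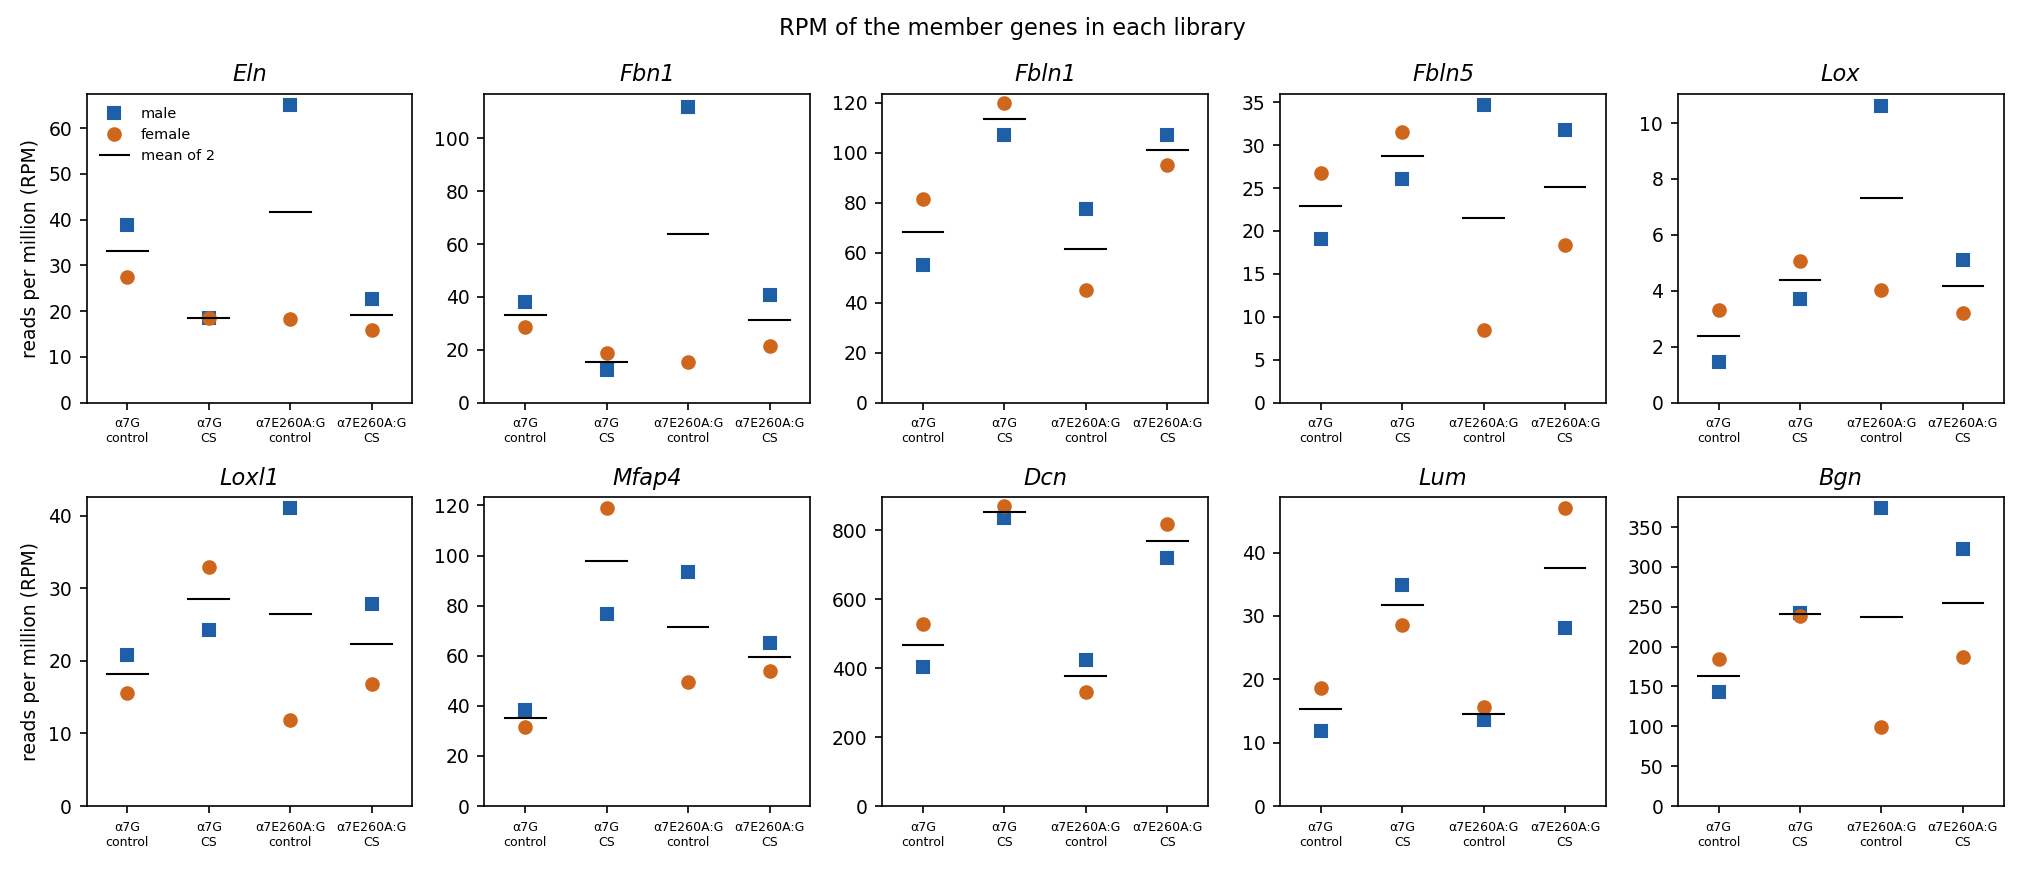
RPM (y axis, linear, from 0) of each of the 10 genes in the 8 libraries, by group on the x axis, with a square for the male library, a circle for the female library and a line at the mean of both. Dcn, Lum and Fbln1 are higher in all 4 CS libraries than in any control library, and the male α7E260A:G control is the highest library for 6 genes.

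The next comparison was between the 4 CS and the 4 control libraries over both genotypes. With CS, Dcn, Lum and Fbln1 were higher in every CS library than in any control library, by 1.93-fold, 2.32-fold and 1.65-fold. Eln and Fbn1, the elastin core and its microfibril scaffold, pointed the other way at 0.503 and 0.481 of the control mean, with overlapping libraries. These 3 of 10 genes stood against a background of 1.65% of tested genes with all CS libraries above all controls, and 0 of 10 genes had all CS libraries below all controls, against 0.417%. After Benjamini-Hochberg adjustment 0 of the 9 tested genes passed edgeR's quasi-likelihood test (background 0.0%), with adjusted p between 0.63 and 0.781. At an unadjusted p under 0.05, 5 of the 9 (Dcn, Eln, Fbln1, Lum and Mfap4) and 7.57% of all tested genes were found. DESeq2 called 2 of the 9, Dcn and Lum, with 0.542% of tested genes called. The median log2 fold-change of the 9 genes was 0.385, and that of all tested genes was -0.004.

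**Figure D2:**
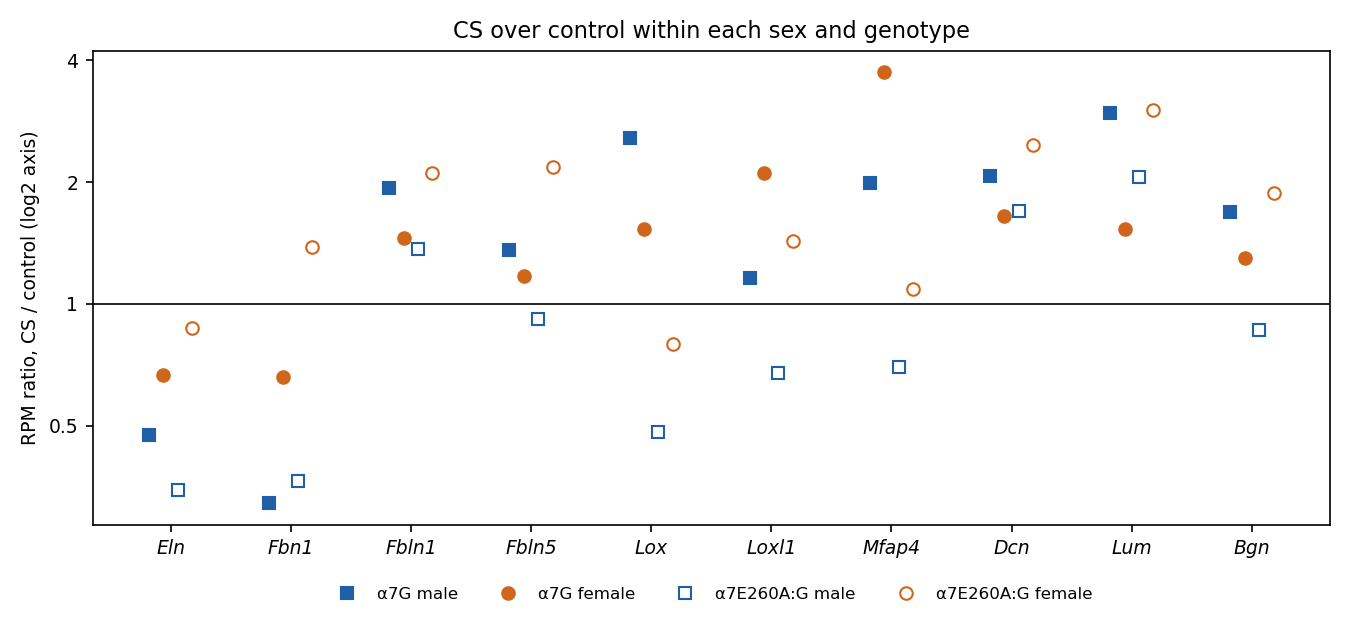
Ratio of RPM, CS over control, within each sex and genotype (y axis, log2 scale, line at 1) for each gene, with squares for males, circles for females, filled for α7G and open for α7E260A:G. All 4 ratios are above 1 for Fbln1, Dcn and Lum and below 1 for Eln, and the filled and open symbols of Mfap4 and Lox lie apart.

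Elastin, the core protein, is encoded by Eln (ENSMUSG00000029675.9, mm9 chr5:135179651-135223111, minus strand). In α7G, Eln was at 38.8 RPM in the male and 27.5 RPM in the female control and at 18.4 RPM in both CS libraries. In α7E260A:G it was at 65.1 and 18.3 RPM in the male and female controls and at 22.6 and 15.9 RPM with CS. The CS libraries were thus all low, and the female α7E260A:G control was the only control among them. Eln was lower with CS in 4 of 4 pairs of the same sex and genotype, a pattern shown by 12.1% of tested genes. The means were 18.8 ± 2.75 RPM with CS and 37.4 ± 20.3 RPM in controls (SD, n = 4), with a two-sided exact permutation p = 0.114 against a smallest possible p of 0.0286. The separation of Eln depended on the library size used. On the TMM effective library sizes of the tested genes Eln was at 19.3 to 23.3 with CS and at 24.7 to 67.7 in controls, with an exact permutation p = 0.0286, whereas on TMM factors times the total CDS counts the female α7E260A:G control (20.6) stayed below the male CS library of its genotype (21.2), with p = 0.0571.

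Fibrillin-1, which forms the microfibril backbone, is encoded by Fbn1 (ENSMUSG00000027204.7, chr2:125126330-125333729, minus strand). In α7G it was at 38.0 and 28.6 RPM in the male and female controls and at 12.2 and 18.8 RPM with CS. The α7E260A:G libraries had 112 and 15.4 RPM in controls and 40.9 and 21.3 RPM with CS. The female α7E260A:G pair was the only one in which Fbn1 was higher with CS, with a ratio of 1.38. The groups overlapped (23.3 ± 12.3 against 48.5 ± 43.3 RPM, SD, n = 4, exact permutation p = 0.314), and without the male α7E260A:G control the ratio of CS to control went from 0.481 to 0.853.

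Mfap4 (ENSMUSG00000042436.6, chr11:61298933-61302402, plus strand) encodes a glycoprotein that binds elastin and microfibrils, and it differed most between the genotypes in its response to CS. In α7G it was at 38.4 and 31.7 RPM in the male and female controls and at 76.5 and 119 RPM with CS. The α7E260A:G controls had 93.5 and 49.6 RPM, and the CS libraries of that genotype 65.2 and 53.9 RPM. Both α7G controls were below every other library. The ratio of CS to control was 1.99 and 3.74 in the α7G male and female and 0.698 and 1.09 in the α7E260A:G male and female.

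The 2 fibulins, which tether elastin to microfibrils and cells, differed in how they separated the groups. Fbln1 (ENSMUSG00000006369.8, chr15:85036379-85116965, plus strand) was at 55.2 and 81.7 RPM in the male and female α7G controls and at 107 and 120 RPM with CS. In α7E260A:G it was at 77.7 and 45.1 RPM in the controls and at 107 and 95.0 RPM with CS. Every CS library was above every control, with means of 107 ± 10 and 64.9 ± 17.6 RPM (SD, n = 4) and a two-sided exact permutation p = 0.0286, the smallest the design allows. The log2 fold-change was 0.75 (SE 0.19), with an adjusted p = 0.63 by edgeR's quasi-likelihood test and 0.0862 by DESeq2. Fbln5 (ENSMUSG00000021186.8, chr12:102984775-103057265, minus strand), which is required for elastic fiber assembly, was at 19.1 and 26.8 RPM in the α7G controls and 26.0 and 31.5 RPM with CS. In α7E260A:G, Fbln5 was at 34.7 and 8.41 RPM in the male and female controls and at 31.8 and 18.4 RPM with CS. The lowest and the highest Fbln5 library were both α7E260A:G controls, and the CS libraries lay between them (26.9 ± 6.29 against 22.3 ± 11.2 RPM, SD, n = 4, exact permutation p = 0.543).

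The lysyl oxidases oxidise lysine residues of elastin and collagen. Loxl1 (ENSMUSG00000032334.8, chr9:58135530-58161019, minus strand) was at 20.8 and 15.6 RPM in the male and female α7G controls and at 24.2 and 32.9 RPM with CS. In α7E260A:G it was at 41.1 and 11.8 RPM in the controls and at 27.8 and 16.8 RPM with CS. The α7G libraries were higher with CS, whereas the α7E260A:G controls lay on both sides of the CS libraries. Over both genotypes the means were 25.4 ± 6.78 RPM with CS and 22.3 ± 13.0 RPM in controls (SD, n = 4, exact permutation p = 0.657). Lox (ENSMUSG00000024529.6, chr18:52675723-52689521, minus strand) was much lower, with 12 to 87 counts per library. It was at 1.44 and 3.31 RPM in the male and female α7G controls and at 3.72 and 5.08 RPM with CS. In α7E260A:G, Lox was at 10.6 and 4.02 RPM in the controls and at 5.11 and 3.21 RPM with CS. The 2 genotypes pointed in opposite directions, and the pooled CS and control libraries overlapped (exact permutation p = 0.886).

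Decorin is encoded by Dcn (ENSMUSG00000019929.8, chr10:96942245-96980777, plus strand). In α7G it was at 404 and 527 RPM in the male and female controls and at 836 and 869 RPM with CS. In α7E260A:G it was at 422 and 330 RPM in the controls and at 718 and 817 RPM with CS. The lowest CS library was above the highest control in both genotypes together, and the ratio of CS to control was 2.07, 1.65, 1.70 and 2.47 in the 4 pairs. The means were 810 ± 64.9 and 421 ± 81.3 RPM (SD, n = 4), with an exact permutation p = 0.0286. The log2 fold-change was 0.98 (SE 0.18), with an adjusted p = 0.63 by edgeR's quasi-likelihood test and 0.000861 by DESeq2.

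Lumican is encoded by Lum (ENSMUSG00000036446.4, chr10:97028135-97035337, plus strand), which begins 47358 bp beyond the end of Dcn with 0 other counted genes in between. In α7G it was at 11.8 and 18.7 RPM in the male and female controls and at 34.9 and 28.5 RPM with CS. Lum in α7E260A:G was at 13.6 and 15.6 RPM in controls and at 28.1 and 47.0 RPM with CS. As for Dcn, no control reached the lowest CS library. The means were 34.6 ± 8.83 and 14.9 ± 2.95 RPM (SD, n = 4, exact permutation p = 0.0286). The log2 fold-change of 1.23 (SE 0.30) had an adjusted p = 0.63 by edgeR's quasi-likelihood test and 0.0365 by DESeq2. The ratio of Dcn to Lum within a library was between 17.4 and 34.3. Kera and Epyc, the next proteoglycan genes of this stretch of chromosome 10, had 0 counts in every library and at most 3 counts in 1 library.

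Biglycan is encoded by Bgn (ENSMUSG00000031375.10, chrX:70728941-70741272, plus strand). In α7G it was at 143 and 184 RPM in the male and female controls and at 242 and 239 RPM with CS. Bgn in α7E260A:G was at 374 and 99.8 RPM in controls and at 323 and 187 RPM with CS. Bgn was higher with CS in 3 of 4 pairs, and the male α7E260A:G control was above every CS library. The pooled means were 248 ± 56.1 and 200 ± 121 RPM (SD, n = 4, exact permutation p = 0.457), and the CS to control ratio of 1.24 became 1.74 without the male α7E260A:G control. Fbln1, Dcn and Lum were higher with CS in 4 of 4 pairs, against 13.1% of tested genes. Without the male α7E260A:G control their ratios were 1.76, 1.93 and 2.25, and Mfap4 and Bgn joined them with all CS libraries above all controls. The margins were narrow, with a lowest CS library at 53.9 (Mfap4) and 187 RPM (Bgn) and a highest remaining control at 49.6 and 184 RPM. In that comparison of 4 against 3 libraries, 2.45% of tested genes had this pattern. The library left out was the control that had kept both genes from separating, so the count of 5 of 10 genes only describes the values.

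The response to CS was then compared between the genotypes. Dcn, Fbln1 and Lum had similar estimates in both, with log2 fold-changes of 0.99, 0.84 and 1.17 in α7G and 0.97, 0.67 and 1.28 in α7E260A:G. By edgeR's quasi-likelihood test 0 of 9 genes passed in either genotype (background 0.0% in each), with lowest adjusted p of 0.588 and 1.0, and 4 of 9 had an unadjusted p under 0.05 in each, against 6.77% and 1.68% of tested genes. DESeq2 called 1 of 9 in α7G (Mfap4, log2 fold-change 1.62, adjusted p = 0.00162, background 0.361%) and 0 of 9 in α7E260A:G (background 0.153%). In a fit of the 4 α7G libraries alone edgeR called 6 of 9 (Bgn, Dcn, Fbln1, Fbn1, Lum and Mfap4), against 16.1% of all tested genes, and in the matching fit of the 4 α7E260A:G libraries it called 0 of 9, against 0.0%.

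Mfap4 had the largest difference between the genotypes. Its log2 fold-change with CS was 1.60 (SE 0.30) in α7G and -0.31 (SE 0.30) in α7E260A:G, a difference of -1.91 (SE 0.42). The adjusted p of this difference was 0.997 by edgeR's quasi-likelihood test and 0.0878 by DESeq2. Mfap4 was the only 1 of 9 genes with an unadjusted p under 0.05 for the difference in either tool, against 1.45% of tested genes in edgeR, and 0 of 9 were called by edgeR (background 0.0%) or by DESeq2 (background 0.0417%). For Loxl1 the log2 fold-change was 0.78 (SE 0.47) in α7G and -0.26 (SE 0.47) in α7E260A:G, and the difference of -1.04 (SE 0.66) had an adjusted p = 0.997 by edgeR.

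The genotypes were compared over both exposures. No gene of the set separated the 4 α7E260A:G from the 4 α7G libraries: 0 of 10 were above in all (background 2.99%) and 0 of 10 below in all (background 5.14%). By edgeR's quasi-likelihood test 0 of 9 passed, against 0.0834% of tested genes, with adjusted p between 0.552 and 0.968, and 0 of 9 had an unadjusted p under 0.05 against 11.9% of tested genes. DESeq2 also called 0 of 9, against 5.93%. Without a length term Fbn1 had the largest estimate, a log2 fold-change of 0.95 (SE 0.51), with means of 47.4 ± 44.4 RPM in α7E260A:G and 24.4 ± 11.3 RPM in α7G (SD, n = 4, exact permutation p = 0.457). With the CDS length offset described with the lengths of these genes, the genotype estimate was 0.37 (SE 0.23) for Fbn1 and 0.40 (SE 0.35) for Bgn. Dcn, at 572 ± 233 and 659 ± 229 RPM (SD, n = 4), had a log2 fold-change of -0.17 (SE 0.18). The median log2 fold-change of the 9 genes was 0.179, and that of all tested genes 0.038.

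**Figure D3:**
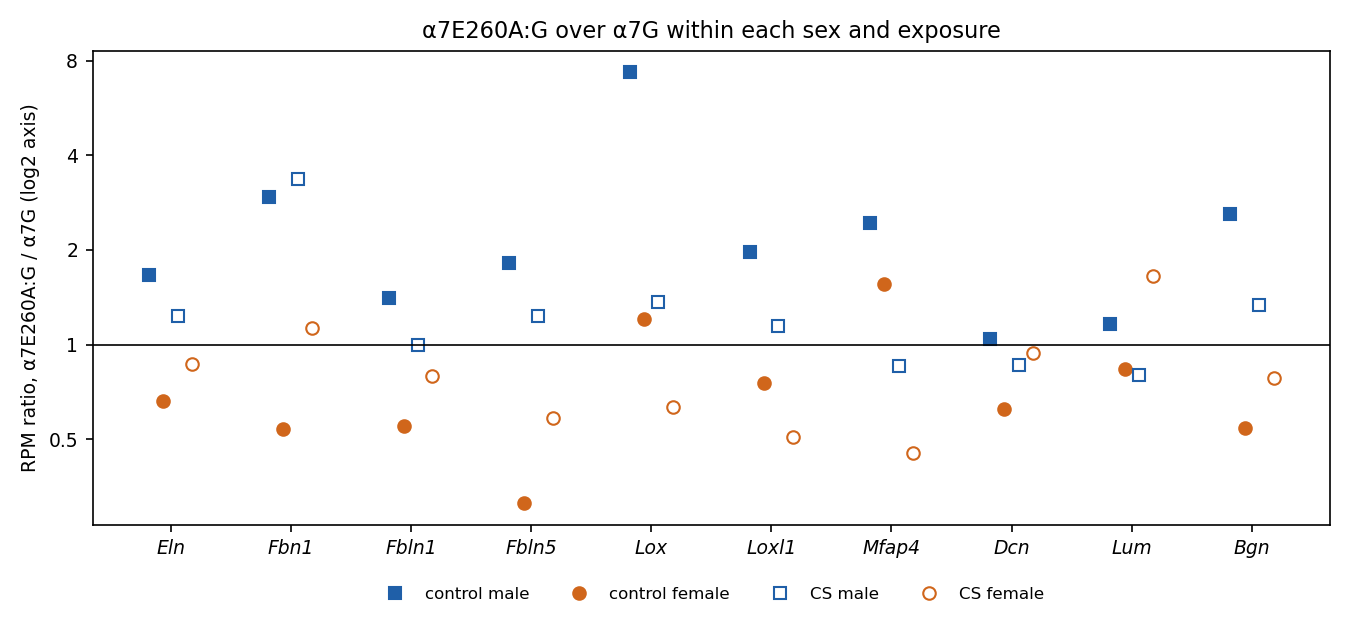
Ratio of RPM, α7E260A:G over α7G, within each sex and exposure (y axis, log2 scale, line at 1) for each gene, with squares for males, circles for females, filled for controls and open for CS. All 10 filled squares, the male controls, are above 1, from 1.04 for Dcn to 7.34 for Lox, and no gene has its 4 symbols on 1 side of the line.

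The spread within α7E260A:G controls was wide for these genes. The male α7E260A:G control was the highest of the 8 libraries for 6 of 10 genes (Eln, Fbn1, Fbln5, Lox, Loxl1 and Bgn), and 29.0% of tested genes were highest there. The female α7E260A:G control was the lowest library for 5 of 10 (Fbln1, Fbln5, Loxl1, Dcn and Bgn), as it was for 34.8% of tested genes. The ratio of male to female in these controls was 7.25 for Fbn1, 4.13 for Fbln5, 3.75 for Bgn, 3.56 for Eln and 3.48 for Loxl1, and 1.28 for Dcn and 0.873 for Lum. In the other 3 groups the male to female ratio of the 10 genes lay between 0.436 and 1.92. Without the male α7E260A:G control the genotype log2 fold-change of Fbn1 went from 0.95 to 0.06. Without the female α7E260A:G control it was 1.33, and these fits had no length term.

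The libraries differed in how the deviation of a gene from its mean depended on CDS length. The slope on the log2 scale per doubling of length was 0.2264 and 0.0572 in the male and female α7G controls and 0.4068 and -0.2366 in the α7E260A:G controls. With CS it was -0.2422 and -0.2018 in the male and female α7G libraries and 0.1861 and -0.1958 in the α7E260A:G libraries. The slopes of the female α7E260A:G control and of the male α7E260A:G CS library thus had the sign of most libraries of the other exposure. Fbn1 has a CDS of 8619 bases, longer than 98.8% of tested genes, and Eln (2580) and Fbln1 (2467) come next, although their CS estimates had opposite signs. Loxl1 has 1821, Fbln5 1344, Lox 1237, Bgn 1107, Dcn 1062, Lum 1014 and Mfap4 843 bases. With a length offset for each library the CS log2 fold-change of Fbn1 went from -0.99 (SE 0.51) to -0.15 (SE 0.23), whereas that of Eln went from -0.92 (SE 0.32) to -0.71 (SE 0.22). The log2 fold-changes of Fbln1, Dcn and Lum were 0.91 (SE 0.18), 0.84 (SE 0.14) and 1.08 (SE 0.21) in that fit, with adjusted p of 0.237, 0.195 and 0.237 by edgeR's quasi-likelihood test. Once length was removed, Eln was at 19.5 to 21.6 RPM with CS and at 23.8 to 50.2 RPM in controls, and Eln, Fbln1, Dcn and Lum did not overlap, against 2.07% of tested genes above and 1.14% below.

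**Figure D4:**
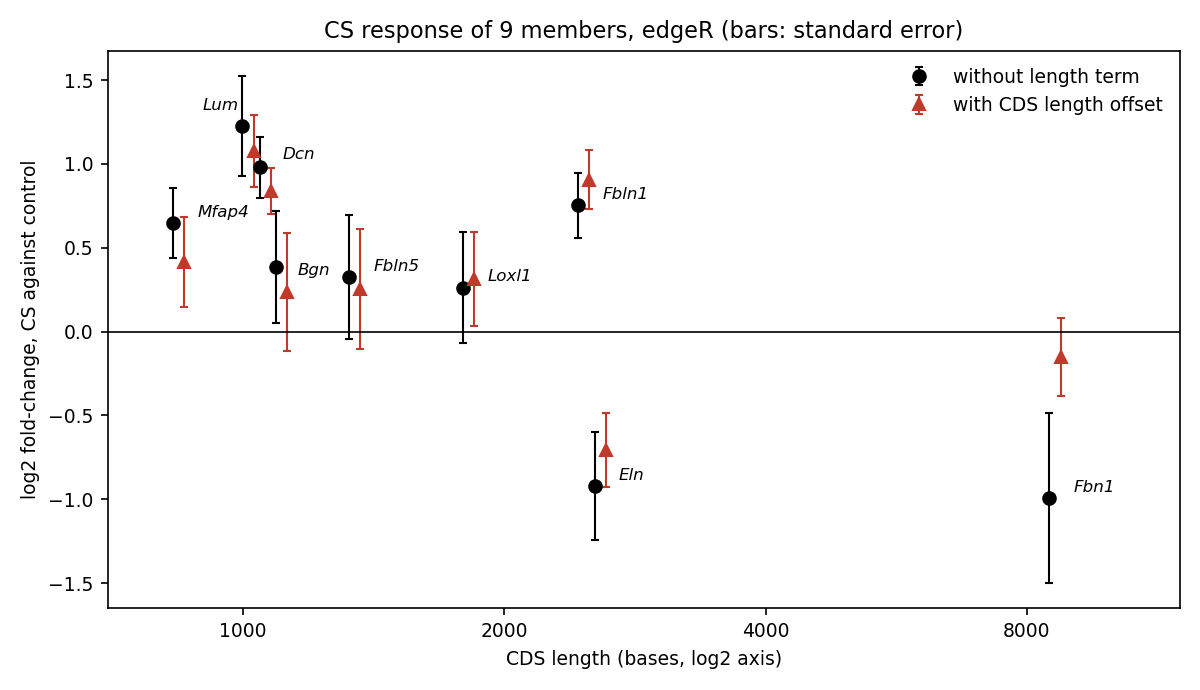
Log2 fold-change of CS against control by edgeR (y axis, bars are the SE) against CDS length in bases (x axis, log2 scale) for the 9 tested genes, as circles without a length term and triangles with the CDS length offset. Fbn1, the longest at 8619 bases, lies at -0.99 without and -0.15 with the offset, and the sign of the estimate is the same in both fits for each of the 9 genes.

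The 10 genes did not vary as 1 block. Over the 8 libraries, on the log2 scale, the correlation was r = 0.934 between Fbln1 and Dcn, 0.897 between Dcn and Lum, 0.906 between Fbln5 and Bgn, and 0.896 between Eln and Fbn1. It was -0.745 between Eln and Lum and -0.552 between Eln and Dcn. These values describe 8 libraries that share their genotype, exposure and CDS length dependence. The genes whose pattern over the 8 libraries was most like the mean of the 9 tested genes of the set, without Lox, included Sparcl1 (r = 0.991), Ogn (0.979), Ctgf (0.964), Olfml2b (0.956), Ppap2b (0.952), Fhl1 (0.949), Col6a2 (0.943), Sparc (0.939) and Ltbp4 (0.935).

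Other genes of the elastic fiber were followed as a list of 20, of which 11 were tested. For CS, edgeR called 0 of the 11 and DESeq2 called 1 (Mfap5), with 3 at an unadjusted p under 0.05 in each, and for genotype edgeR called 0 and DESeq2 called 1 (Emilin1), which was also the only 1 at an unadjusted p under 0.05. The median CS log2 fold-change of the list was 0.103. Mfap5, which encodes another microfibril-associated glycoprotein, and Efemp2, which encodes fibulin-4, were above all controls in all CS libraries. Mfap5 was at 29.3 to 46.7 RPM with CS and 11.8 to 24.5 RPM in controls, with a log2 fold-change of 1.20 (SE 0.22). By genotype its estimate was 1.84 (SE 0.32) in α7G and 0.56 (SE 0.31) in α7E260A:G. The difference of -1.29 (SE 0.44) was called by neither tool. Mfap5 was the only 1 of the 11 with an unadjusted p under 0.05 for it in each, against 1.45% of tested genes in edgeR and 2.13% in DESeq2. Efemp2 was at 28.7 to 35.2 RPM with CS and 19.7 to 25.5 RPM in controls. Emilin1, an elastin-associated glycoprotein, was higher in every α7E260A:G than in every α7G library (log2 fold-change 0.92). Per length, the most abundant of the list were Emilin2 at 63.1 RPM per kb, Efemp1 (fibulin-3) at 63.0 and Mfap5 at 59.1.

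Among 15 other matrix proteoglycans 6 were tested, with a median CS log2 fold-change of 0.103. For CS 0 of 6 passed in edgeR, with 0 at an unadjusted p under 0.05, and 0 passed in DESeq2, with 1 (Ogn) at an unadjusted p under 0.05. For genotype edgeR called 0 and DESeq2 called 1, Chad, the only 1 at an unadjusted p under 0.05. Srgn, the proteoglycan of blood cell granules, was the most abundant per length at 768 RPM per kb. Ogn, which encodes the small leucine-rich proteoglycan osteoglycin, was at 85.8 to 97.9 RPM with CS and 38.1 to 101 RPM in controls. Aspn, which encodes the related asporin and lay below the count minimum, was at 20.6 to 27.3 RPM with CS and 7.22 to 15.9 RPM in controls, with no overlap. Chad and, below the count minimum, Esm1 were lower in every α7E260A:G than in every α7G library (log2 fold-change of Chad -1.31). Of 10 enzymes that can degrade elastin 6 were tested. For CS edgeR called 0 of 6, with 2 (Mmp12 and Mmp2) at an unadjusted p under 0.05. DESeq2 called Mmp12, with 3 (Ctsl, Mmp12 and Mmp2) at an unadjusted p under 0.05. Mmp12, the macrophage elastase, was at 1.28 to 11.7 RPM with CS and at 15.7 to 99.0 RPM in controls, a log2 fold-change of -2.55 (SE 0.54). Most of the list pointed the other way, with a median CS log2 fold-change of 0.469. Ctss, Ctsl and Mmp2 were higher with CS in 4 of 4 pairs, Ctsk in 3, Mmp9 in 2 and Mmp12 in 0. Of all tested genes, 13.1% were higher and 12.1% lower in all 4 pairs. For genotype edgeR called 0 of 6, with Ctss and Mmp12 at an unadjusted p under 0.05, and DESeq2 called these 2. Ctss was at 3920 RPM on average and higher in every α7E260A:G than in every α7G library. Of 8 elastase inhibitors 3 were tested (Slpi, Timp2 and Timp3). For CS edgeR and DESeq2 each called 0 of 3, with Timp2 at an unadjusted p under 0.05, and Timp2 was at 91.2 to 113 RPM with CS and 65.1 to 97.8 RPM in controls. For genotype edgeR called 0 of 3, with 1 (Slpi) at an unadjusted p under 0.05, and DESeq2 called Slpi, which was at 320 to 1100 RPM in α7E260A:G and 207 to 315 RPM in α7G. Serpina1a and Serpina1d had 0 counts.

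Markers of other cell types were followed beside these genes. The summed fibroblast markers were at 893 to 1040 RPM in α7G and at 516 to 2310 RPM in α7E260A:G, and at 516 to 2230 RPM in controls and 1010 to 2310 RPM with CS. The male α7E260A:G libraries were the highest, at 2230 RPM in the control and 2310 RPM with CS, and the female control of that genotype was the lowest. Bgn, Loxl1 and Fbln5 were also lowest in that female control and highest in the male control of the genotype. The part of the fibroblast markers in these results was not tested. Of the 8 fibroblast markers 6 were tested, and their median CS log2 fold-change was 0.1, with 0 markers separating CS from control libraries. Pdgfra, Col1a2, Col1a1, Col3a1 and Col6a3 have a CDS of 3267 to 9818 bases and Thy1 of 486, against 1062 for Dcn and 1014 for Lum. The sums and fold-changes of these markers were taken without the length offset, and their dependence on length was not tested. For genotype, 5 of the 6 had a positive log2 fold-change. The other was Thy1, the most abundant of the 6 per length at 235 RPM per kb. Thy1 was at 85.5 to 99.9 RPM in α7E260A:G and at 106 to 175 RPM in α7G. The 7 smooth muscle and pericyte markers were low, at 26.5 to 45.4 RPM in sum, and 0 of them passed the count minimum. The mesothelial markers summed to 53.1 to 110 RPM with CS and to 36.4 to 80.3 RPM in controls, and overlapped. Of the 4, Msln and Upk3b were higher with CS in 4 of 4 pairs, Wt1 in 3 and Lrrn4 in 1, against 13.1% of tested genes in all 4 pairs. Of the 5 epithelial markers Krt19 was above all controls in all CS libraries (750 to 997 against 501 to 679 RPM), Krt18 was higher with CS in 4 of 4 pairs, Krt8 in 3, Epcam in 2 and Cdh1 in 1. Of the 5 leukocyte markers Cd68 was higher with CS in 4 of 4 pairs, Lyz2 and Cd79a in 3, Cd3e in 2 and Ptprc in 0. In edgeR and in DESeq2 0 of the 5 epithelial and 0 of the 5 leukocyte markers were called for CS, with 3 and 2 at an unadjusted p under 0.05. The part of these markers in the values of Dcn, Lum and Fbln1 was not tested.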

How the data were processed

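The deposited values were raw counts per gene. The authors aligned the reads of stranded poly(A) libraries with STAR to mm9 (NCBIM37) and made counts over coding sequence with HTSeq (GENCODE M1). Versions and the counting mode for strand are not given in the sources used here. Groups were taken from the genotype, exposure and sex labels. The genes and lists were chosen with earlier results of these data known. Genes with a mean of at least 200 counts over the 8 libraries were tested, without immunoglobulin, histocompatibility, ribosomal and Gm-named genes. The model had 4 group means and was fitted with edgeR 4.0.16 (TMM, quasi-likelihood F-test, Benjamini-Hochberg over 7195 genes, threshold 0.05) in R 4.3.3. Contrasts were genotype, CS, CS within each genotype and their difference. DESeq2 1.42.0 was an alternative. RPM are counts per 1000000 CDS counts of the library. Single genes were compared over 4 against 4 libraries by a two-sided exact permutation test of mean RPM (70 arrangements), unadjusted. Replicates are 1 male and 1 female library, so p-values measure the spread between these libraries. The CDS length offset was a lowess fit (span 0.667) per library. Correlations used log2(RPM + 0.5). Of the other matrix, enzyme and inhibitor lists, the 3 tested genes most abundant per length were named. Others, with libraries that did not overlap, with an unadjusted p under 0.05 or to show both directions of a list, were named after their values were seen. Not all cell type markers among the most abundant of their list were named. The scripts were tested on simulated data. An item of the list of genes with a like pattern is not reported here.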

Additional observations from a re-analysis of the deposited data

Results flagged for a closer look

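Lox was the only gene of the set in which both pairs of 1 genotype moved up with CS and both pairs of the other moved down. The ratio of the CS mean to the control mean was 0.569 in α7E260A:G, with 0.482 in the male and 0.798 in the female pair, and the ratios in α7G were 2.58 and 1.53. The counts were 12 to 87 per library, and the difference between the genotypes was not tested in the main comparison because Lox lay below the count minimum. With the lower count minimum of edgeR's filterByExpr the log2 difference was -1.83 (SE 0.82), with an adjusted p = 1.0 by the quasi-likelihood test.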

How the results depend on the processing

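The count of genes of the set past the threshold moved under DESeq2 (2 for CS and 1 for CS in α7G) and in the fit of the 4 α7G libraries (6), and the cause was not tested. Leaving out 1 library leaves 1 library in a group, so only log2 fold-changes and overlap are given for these fits. With 1 library left out, 3 to 5 genes had no overlap for CS and 0 to 0 for genotype. The count was 5 without the male α7E260A:G control, where 2.45% of tested genes were above and 0.653% below. Over the 8 sets these shares were 2.04% to 6.12% and 0.486% to 7.34%. Of the log2 fold-changes given for genotype, for CS and, for Fbln1, Dcn, Lum, Mfap4 and Loxl1, for CS within a genotype, signs turned only on leaving out a library, and the ranges for genotype were -0.28 to 0.48 for Eln, -0.27 to 0.04 for Fbln1, -0.72 to 0.15 for Fbln5, -0.38 to 0.37 for Loxl1, -0.11 to 0.38 for Lum and -0.21 to 0.59 for Bgn. For CS they were -0.01 to 0.73 for Loxl1, and within α7E260A:G -0.55 to 0.02 for Mfap4 and -0.8 to 0.66 for Loxl1. Dcn stayed between 0.87 and 1.12, Lum between 0.94 and 1.46 and Fbln1 between 0.61 and 0.95 for CS. The scaling of RPM by TMM factors times total CDS counts was chosen after seeing the data and left 3 genes with no overlap for CS. With sex as a replicate block 0 of 9 genes passed in any contrast, and the CS log2 fold-change was 0.98 for Dcn (adjusted p = 0.265 by edgeR), 1.25 for Lum and -0.85 for Eln. Sex was not taken to pair the libraries, since same-sex deviations correlated above 0.1 in 4 of the 6 pairs of groups and not in all, at 0.13, 0.531, 0.54, -0.125, 0.031 and 0.836 over 7195 genes. Counts of pairs of the same sex and genotype therefore describe the values and are not paired tests. Over all genes the genotype contrast called 6 genes by edgeR, 9 with library size scaling, 13 with filterByExpr, 69 with no filter, 40 with the block, 483 with the length offset, 683 with both and 427 by DESeq2. DESeq2 called 39 genes for CS, 26 for CS in α7G, 11 for CS in α7E260A:G and 3 for the difference, where edgeR called 0, and the fit of the 4 α7G libraries called 1159. The 2 libraries per group and the count minimum bound what could be seen for Lox. Its 12 to 87 counts lay above the 3-count limit of 0.274 to 0.374 RPM in every library.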
